A study of Mus musculus with 14 samples.

Results

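Peptides released by the neuronal membrane proteasome, applied intact to cortical neurons for 1 h, were compared with the vehicle control, 1% DMSO. The comparison uses 5 of the 14 libraries of the study, chosen by their labels alone: 3 libraries treated with intact peptides at 4% by volume (here NMP peptides) and 2 treated with DMSO, numbered replicates 2 and 3. All libraries came from primary cortical neuronal cultures of wild-type C57BL/6 mice after 12 days in vitro, and all treatments lasted 1 h. The other 9 libraries, 3 per group, received peptides cleaved with proteinase K (PK-cleaved peptides, 4% by volume), peptides together with the NMDA receptor antagonist APV at 100 µM, or the GABA-A receptor antagonist bicuculline at 20 µM. They entered the model that estimates the spread, and they are named below only where a gene is set beside them. The labels give a DMSO content for the control group only. A difference between peptides and vehicle therefore cannot be told apart from a difference in solvent.

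The neuronal membrane proteasome is a proteasome complex at the plasma membrane of neurons that degrades newly made proteins and releases the resulting peptides outside the cell. Neuronal stimulation is known to switch on immediate-early genes, whose transcription needs no new protein synthesis. Calcium entry through NMDA receptors and voltage-gated channels activates kinases that phosphorylate CREB, the factor that binds the cAMP response element, and the serum response factor complex. Npas4, Fos and Nr4a1 are among the promptest of these genes. Changes in the opposite direction within so short a time are seen mainly in transcripts that turn over fast, because a stable mRNA persists after its synthesis stops.

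Values are log2 signals on the deposited, quantile-normalised scale, and a fold change is the mean of the 3 NMP peptides libraries minus the mean of the 2 DMSO libraries on that scale. A gene is said to have risen or fallen only at a limma adjusted p under 0.05 (Benjamini-Hochberg, two-sided, over 10877 tested genes). The depth of the libraries is unknown. Genes of the cultured cell types were present as labelled for cortical neurons, with 12 of 12 excitatory and 16 of 17 inhibitory neuron markers above the expression filter. Of glial genes, 17 of 18 astrocyte and 10 of 16 oligodendrocyte lineage markers passed the filter. So did 1 of 14 microglial and 2 of 14 endothelial and mural markers. The filter kept 10877 of all 18128 features with a value, and 10 of 16 is close to that share. In bulk RNA, fewer cells of a type and less RNA per cell cannot be told apart.

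The promoters of the genes on which the comparison turns are printed first, for the 2 genes that rose, for Nr4a1 and Btg2 just outside the threshold, and for Txnip, which had the lowest fold change. Each is the 250 bases before the RefSeq transcription start on GRCm38.p6, read 5' to 3' on the gene's own strand. They lie at chr19:4989972-4990221 (minus strand, Npas4), chr12:85473640-85473889 (plus, Fos), chr15:101266596-101266845 (plus, Nr4a1), chr1:134079156-134079405 (minus, Btg2) and chr3:96557707-96557956 (plus, Txnip). Capitals mark TGACG, the core of the cAMP response element, read on either strand, so that CGTCA is the same element on the opposite strand. In Btg2 the 2 matches overlap in the full palindrome TGACGTCA.
Npas4: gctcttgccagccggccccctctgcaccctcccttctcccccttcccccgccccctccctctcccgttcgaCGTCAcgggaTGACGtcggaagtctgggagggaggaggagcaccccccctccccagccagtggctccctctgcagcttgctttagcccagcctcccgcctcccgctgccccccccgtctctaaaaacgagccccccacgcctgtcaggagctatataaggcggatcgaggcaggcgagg
Fos: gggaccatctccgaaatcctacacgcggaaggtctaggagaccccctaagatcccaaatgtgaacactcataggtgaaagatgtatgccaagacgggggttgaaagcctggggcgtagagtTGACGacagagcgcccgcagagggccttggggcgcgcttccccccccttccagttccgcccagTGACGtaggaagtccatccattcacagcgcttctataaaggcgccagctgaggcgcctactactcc
Nr4a1: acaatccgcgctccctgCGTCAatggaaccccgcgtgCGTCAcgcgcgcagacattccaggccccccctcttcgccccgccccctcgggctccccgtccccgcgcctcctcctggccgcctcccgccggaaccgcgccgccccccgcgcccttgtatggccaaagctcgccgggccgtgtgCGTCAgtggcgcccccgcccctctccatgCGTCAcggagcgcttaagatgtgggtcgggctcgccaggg
Btg2: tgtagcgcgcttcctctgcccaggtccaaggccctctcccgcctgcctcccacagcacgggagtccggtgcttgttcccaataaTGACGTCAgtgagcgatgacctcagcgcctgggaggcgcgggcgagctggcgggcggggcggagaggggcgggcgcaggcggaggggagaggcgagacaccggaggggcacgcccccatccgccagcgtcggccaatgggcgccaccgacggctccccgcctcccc
Txnip: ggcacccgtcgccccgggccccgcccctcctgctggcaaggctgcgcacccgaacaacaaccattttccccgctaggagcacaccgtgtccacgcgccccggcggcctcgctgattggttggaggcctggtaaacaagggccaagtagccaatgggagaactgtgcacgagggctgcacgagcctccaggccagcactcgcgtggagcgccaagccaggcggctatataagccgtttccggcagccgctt
In Npas4 the 2 matches begin 179 and 169 bases before the start, and in Fos 129 and 66. Nr4a1 held 4, at 233, 213, 69 and 40 bases, and Btg2 2, at 166 and 163. The Txnip window held neither TGACG nor CACGTG, the palindromic form of the E-box, which says only that these letters are not in this window. Forms of the E-box that differ from CACGTG were not searched for or marked. Over windows that also take in the first 50 transcribed bases, TGACG stood on either strand in 9 of the 10 named genes with the smallest p above 0. It stood in 6 of the 17 genes with a promoter entry (35.3%) among the 20 with the smallest p below 0, and in 37.6% of the 8422 tested genes with an entry. TGACGTCA, found in 3.95% of those tested genes, was present in Btg2 and Dusp1 among the 10. Ppp1r10 was the 1 of the 10 without TGACG, and Fosb held 1 match. Both had the same adjusted p as Nr4a1 and Btg2, but their promoters are not printed. The search was made after the fold changes were known, and a match in the letters does not show a bound site.

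With NMP peptides 2 genes rose and 0 fell at the adjusted threshold, 0.0184% and 0% of the tested genes. Npas4, a transcription factor of activated neurons, stood at 0.81 and 1.81 in the DMSO libraries and at 3.45, 3.80 and 2.93 with NMP peptides. Fos, a subunit of AP-1, stood at 4.03 and 4.61 in DMSO and at 6.31, 6.56 and 5.71 with NMP peptides. In both genes every treated library lay above both controls, and replicate 3 was the lowest treated library and the highest control. The groups were thus closest between libraries of the same number. The log2 fold changes were 2.08 (SE 0.31) and 1.88 (SE 0.28), each with an adjusted p of 0.0455. Both calls depended on the setting: the number of genes called was 0 in 7 of 12 other settings, among them the fits without NMP peptides replicate 1 or 2, and was 10 without NMP peptides replicate 3, both Npas4 and Fos included. Without DMSO replicate 2 it was 1, which was neither of them, and without DMSO replicate 3 it was 3, with Npas4 but not Fos. With a replicate block it was 0, and with libraries centred on their median it was 6.

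**Figure D1:**
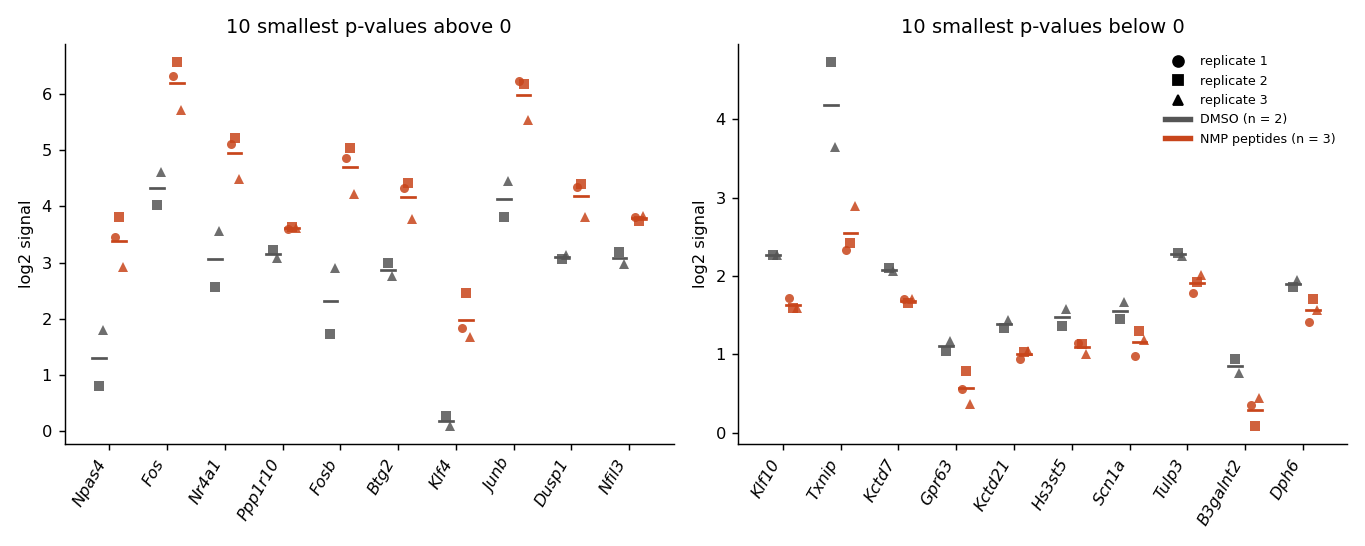
Log2 signal in each of the 5 libraries (DMSO grey, NMP peptides orange; marker shape gives the replicate number, bars the group mean) for the 10 named genes with the smallest p on each side of 0. Npas4 spans 0.81 to 1.81 in DMSO and 2.93 to 3.80 with NMP peptides; Klf10 is at 2.26 to 2.27 against 1.59 to 1.73, and Txnip is the gene with the widest spread on the right.

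Genes just outside the threshold were of the same kind, with one exception. Fosb (2.38, SE 0.39), Nr4a1 (1.88, SE 0.30) and Btg2 (1.29, SE 0.21) each had an adjusted p of 0.052 in limma. Klf4 (1.80, SE 0.30) and Junb (1.86, SE 0.32) followed at 0.0539. Fosb and Junb are AP-1 subunits, Nr4a1 is an orphan nuclear receptor, Klf4 is a zinc finger factor and Btg2 is an antiproliferative gene that recruits mRNA deadenylases. Btg2 differed from Npas4 and Fos in that its controls were close, at 3.00 and 2.76 against 4.33, 4.41 and 3.78. Klf4 was likewise at 0.27 and 0.10 against 1.83, 2.46 and 1.67.

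Ppp1r10 was the exception, a small shift with little spread. It encodes PNUTS, a nuclear subunit of protein phosphatase 1 that acts on RNA polymerase II, and lies on chromosome 17 from 35916512 to 35932283. Its signal was 3.22 and 3.09 in DMSO and 3.59, 3.64 and 3.62 with NMP peptides, so the treated libraries differed from each other by less than the controls did. The fold change was 0.46 on the log2 scale (SE 0.07, 138% of the control level) with an adjusted p of 0.052, the same as for genes whose shift was several times larger. Nfil3, a basic leucine zipper repressor, was also tight among treated libraries, at 3.18 and 2.97 against 3.81, 3.73 and 3.82 (0.71, SE 0.13, adjusted p = 0.0657). Sik1, a salt-inducible kinase that restrains CREB coactivators, had 0.48 (SE 0.09, adjusted p = 0.104). In 8 of the 10 named genes with the smallest p above 0, replicate 3 was the lowest of the treated libraries. Ppp1r10 and Nfil3 were the remaining 2.

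Of 22 tested immediate-early transcription factors, 2 rose, 0 fell and 20 did not pass (16 above and 1 below 0 had an unadjusted p under 0.05), with a median fold change of 1.04 on the log2 scale against -0.04 over all tested genes. One member had a negative fold change, Klf10, described below. Members farther from the threshold included Maff (1.29, SE 0.30), Egr2 (1.22, SE 0.32), Ier2 (0.92, SE 0.24), Nr4a3 (0.63, SE 0.23) and Jun (0.49, SE 0.16). Egr1 was at 4.75 and 5.48 against 6.33, 6.77 and 5.72, and Egr4 at 2.69 and 3.18 against 4.72, 4.53 and 3.94. In both, replicate 3 was the treated library nearest to the controls.

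Of 23 tested activity-regulated effectors, 0 passed (11 above and 0 below 0 had an unadjusted p under 0.05), with a median of 0.46 and 4 members below 0. Arc, a synaptic protein that drives endocytosis of AMPA receptors, was at 1.74 and 2.63 against 4.07, 4.21 and 3.20. Gadd45b, a stress sensor, was at 1.73 and 1.88 against 3.33, 3.26 and 2.89. The matricellular gene Cyr61 was at 2.73 and 2.77 against 4.70, 4.67 and 3.54. In all 3 the groups did not overlap and the adjusted p missed the threshold (0.44, 0.358 and 0.398). Of the 23 effectors 12 were higher without overlap, against 4.28% of all tested genes.

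Several other effectors lay closer to 0 than these 3, with Pcsk1 the lowest of the list. Homer1, a postsynaptic scaffold, had a fold change of -0.08 on the log2 scale with a 95% interval from -0.34 to 0.18. Nppc, a natriuretic peptide precursor, had -0.17 (interval -0.65 to 0.31), and Pcsk1, a prohormone convertase, -0.27 (-0.99 to 0.44). For Nptx2, a pentraxin that clusters AMPA receptors, the interval ran from -0.37 to 0.36. Bdnf, which encodes a neurotrophin, was farther from 0, with a fold change of 0.64 on the log2 scale. It was at 0.93 and 1.42 against 1.94, 2.24 and 1.28, so that its groups overlapped. The whole intervals of Homer1 and Nptx2 lay within 0.46 of 0, the size seen for Ppp1r10, whereas those of Nppc and Pcsk1 reached past it below 0.

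Of 13 tested MAP kinase feedback regulators, 0 passed (3 above and 0 below 0 had an unadjusted p under 0.05), with a median of 0.15 and 5 members below 0. Dusp1, a nuclear MAP kinase phosphatase, was at 3.05 and 3.14 against 4.34, 4.39 and 3.80 (1.08, SE 0.19, adjusted p = 0.0641). Dusp6, the phosphatase of ERK, was at 3.46 and 4.06 against 5.07, 5.10 and 4.25. Spry1, a Sprouty inhibitor of receptor signalling, was at 2.01 and 2.29 against 2.16, 2.11 and 2.05, with an interval from -0.25 to 0.16.

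Below 0, limma called 0 genes, 142 had an unadjusted p under 0.05 (1.31%), and the smallest adjusted p on that side was 0.164. Klf10 and Txnip stood apart from the rest there. They are the 2 genes of the whole table whose 95% interval lay entirely below -0.25 on the log2 scale, against 27 genes whose interval lay entirely above 0.25.

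Klf10, a zinc finger factor named for its induction by TGF-beta (chromosome 15, 38291464 to 38300711), was at 2.27 and 2.26 in DMSO and at 1.73, 1.59 and 1.59 with NMP peptides. The controls were nearly equal, and both lay above the highest treated library. The fold change was -0.63 on the log2 scale (SE 0.13, 95% interval -0.90 to -0.36), or 64.5% of the control level, with an adjusted p of 0.164. It was the only immediate-early transcription factor of the list with a value below 0. Klf4, its relative in the same zinc finger family, was on the opposite side, as given above. Over the 11 other settings in which Klf10 was tested, its fold change ranged from -0.68 to -0.61 and its adjusted p from 0.0803 to 1.

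Txnip encodes an alpha-arrestin that binds thioredoxin and restrains glucose uptake, and its short-lived mRNA is known to follow glucose flux through the factors Mlxip and Mlx. It lies on chromosome 3 from 96557957 to 96561857. Its signal was 4.73 and 3.64 in DMSO and 2.34, 2.43 and 2.89 with NMP peptides. All treated libraries were below both controls, yet the 2 controls differed from each other by more than the nearer control differed from the highest treated library. The fold change of -1.63 on the log2 scale (SE 0.34, 95% interval -2.36 to -0.91) corresponds to 32.2% of the control level, with an adjusted p of 0.208. Taking DMSO replicate 2 out gave -1.09 and taking DMSO replicate 3 out gave -2.18, so the control libraries decide its size. It was the only gene below -1, against 23 genes above 1.

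Other alpha-arrestins and the glucose-sensing factors did not share this size of difference. All 7 tested members of that list were below 0 (6 with libraries centred on their median), but besides Txnip they ranged from -0.14 for Arrdc3 to -0.01 for Arrdc2, and 0 were called. Arrdc4, which shares glucose regulation with Txnip, was at 4.34 and 4.23 against 4.31, 4.15 and 4.07. Mlxip had -0.11 and Mlx -0.10, each with an SE of 0.12.

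**Figure D2:**
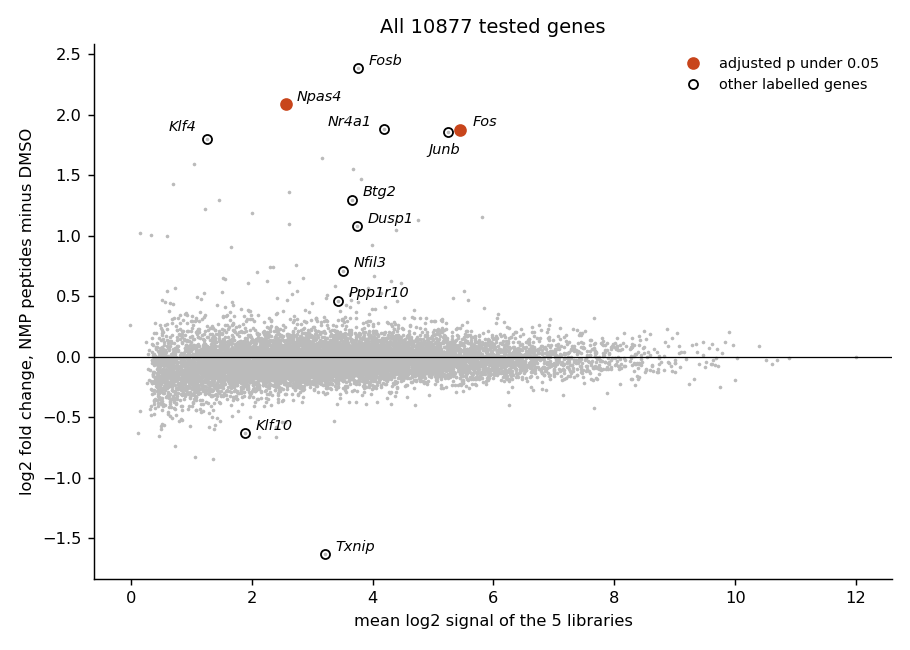
Log2 fold change (NMP peptides minus DMSO) against the mean log2 signal of the 5 libraries for 10877 tested genes, with the called genes filled in orange and other labelled genes as open circles. Most labelled activity genes lie between 1 and 2.4, whereas below 0 Txnip (-1.63) stands alone and Klf10 (-0.63) sits at the lower edge of the cloud.

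After these 2, the remaining 18 of the 20 named genes with the smallest p below 0 all had an adjusted p of 0.971 in limma and fold changes between -0.74 and -0.23. In 17 of the 18 the treated libraries were entirely below the controls, as in 13.1% of all tested genes. Choosing genes by their p in these libraries makes that likely, so the count is a description only. Kctd7, an adaptor of cullin-3 ubiquitin ligases (chromosome 5, 130137978 to 130155119), was at 2.10 and 2.06 against 1.70, 1.66 and 1.70. Its fold change of -0.39 (SE 0.11) rested on libraries that agreed closely within each group. The related adaptor Kctd21 was at 1.34 and 1.44 against 0.94, 1.03 and 1.04, with the same fold change of -0.39 (SE 0.13).

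Scn1a, the sodium channel Nav1.1 of fast-spiking interneurons, was at 1.45 and 1.67 against 0.98, 1.30 and 1.18 (-0.41, SE 0.14). The orphan receptor Gpr63 was at 1.05 and 1.17 against 0.56, 0.79 and 0.37 (-0.54, SE 0.17). Nrarp, a feedback inhibitor of Notch signalling, was at 2.53 and 3.11 against 2.28, 2.15 and 2.40 (-0.54, SE 0.19). Among the 10 tested Notch targets and ligands the next lowest was Hes5, at -0.16 (SE 0.21), and the list median was 0.00, ranging from -0.12 to 0.16 without 1 library. Hes1, a direct Notch target, had 0.31 (SE 0.23).

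The other genes had these values. Tigar, a phosphatase that lowers fructose bisphosphate, was at 2.51 and 2.81 against 2.27, 2.32 and 2.26, a fold change of -0.38. Gpd1, the cytosolic glycerol phosphate dehydrogenase, was at 1.88 and 1.92 against 1.44, 1.60 and 1.58 (-0.36). Sacm1l, a lipid phosphatase of the endoplasmic reticulum and Golgi, was at 4.12 and 4.31 against 3.89, 3.95 and 4.03 (-0.26). Ap3m1, a subunit of the AP-3 sorting complex, was at 3.94 and 3.97 against 3.29, 3.74 and 3.72 (-0.37), with replicate 1 the lowest. Nutf2, which imports Ran into the nucleus, had the smallest size, -0.23 (SE 0.08). Med18, a Mediator subunit, had the largest, -0.74 (SE 0.27), and was the one whose libraries overlapped, at 1.49 and 0.88 against 0.38, -0.03 and 0.98. Between them lay Ccnf, Jrkl, B3galnt2, Hs3st5, Tulp3, Dph6 and Atpaf1, from -0.56 for B3galnt2 to -0.24 for Atpaf1.

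Restricting to genes above the median level, the 10 largest negative differences without overlap were led by Txnip and Morf4l1b (-0.53). Morf4l1b is a near copy of Morf4l1, so how reads were divided between the copies is uncertain. Fabp5, a fatty acid binding protein, was at 7.78 and 8.07 against 7.19, 7.65 and 7.66 (-0.42, SE 0.17). Pcp4, a calmodulin regulator, was at 6.35 and 6.48 against 5.77, 6.33 and 6.26 (-0.29, SE 0.15). Polr2j, a subunit of RNA polymerase II, was at 5.56 and 5.53 against 4.81, 5.49 and 5.47 (-0.29, SE 0.19). In these 3 genes replicate 1 was far below the other treated libraries, which lay just under the controls. Replicate 1 was the lowest treated library in 10 of the 10, which also include Arhgap20, Ap3m1, Ubxn2a, Sc5d and Ubap2. The part of that library in these differences is given by the fits without it: the fold change became -0.07 for Polr2j, -0.12 for Pcp4, -0.27 for Fabp5 and -0.23 for Ap3m1, in each gene the smallest in size over all settings.

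The whole distribution was narrow and lay slightly below 0. The median fold change was -0.04 on the log2 scale, the 5th and 95th percentiles were -0.23 and 0.17, and 7037 genes (64.7%) were below 0. At an unadjusted p under 0.05 there were 142 genes below 0 and 78 above (0.717%). Together these 220 genes are fewer than the share of 0.05 that such a threshold passes where no gene differs. The controls and treated libraries did not overlap for 1426 genes below 0 (13.1%) and 466 above (4.28%). Thus 75.4% of genes without overlap were lower with NMP peptides. With 3 against 2 libraries, order alone leaves many genes without overlap, so these counts do not show that the genes changed. Large differences had the opposite balance: 52 genes were at or above 0.5 and 28 at or below -0.5. Of these, 40 and 12 had no overlap.

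The excess of small negative values depended on scaling. With each library centred on its median, the median fold change was -0.02 and 56.7% of genes were below 0. The genes at an unadjusted p under 0.05 then numbered 115 above and 82 below 0, a share of 41.6% below against 64.5% as deposited. The genes without overlap numbered 732 above and 957 below, 56.7% against 75.4%. The median log2 signal over tested genes was 3.33 and 3.31 in the DMSO libraries and 3.28, 3.30 and 3.29 in the NMP peptides libraries. These medians differ by a few hundredths, the size of the median fold change itself. Features with a value numbered 16231 and 16089 in DMSO and 15917, 16053 and 15973 with NMP peptides, the same order of libraries. Whether these numbers take part in the shift was not tested. Of the 1426 genes without overlap below 0, NMP peptides replicate 1, the library with the lowest median, was the lowest in 933 (65.4%). It was also the highest treated library in 310 of the 466 genes without overlap above 0.

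**Figure D3:**
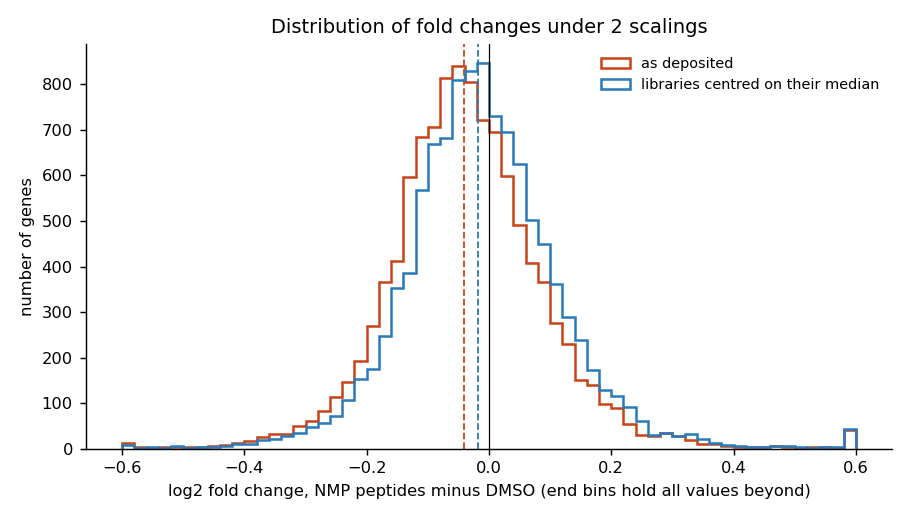
Number of tested genes by log2 fold change (NMP peptides minus DMSO), with the values as deposited in orange and with each library centred on its median in blue; dashed lines mark the medians, and the end bins hold all values beyond. The centre moves from -0.04 to -0.02, and the right end bin is taller than the left one.

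The negative side was thickest among weakly expressed genes. With the tested genes split by level into 3 tiers of equal size, 70.4% of the lowest tier were below 0, with a median of -0.07. In the middle and highest tiers these were 63.6% and 60.1%, with medians of -0.04 and -0.03. Differences at or below -0.5 numbered 25, 3 and 0 in the 3 tiers, and those at or above 0.5 numbered 22, 18 and 12. In the highest tier, unadjusted p-values under 0.05 were even in direction, 24 above and 25 below 0. Precision moves with level in the same order, with median SEs of 0.145, 0.108 and 0.0944.

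How small a change these libraries can bound is given by the intervals. For 9064 genes (83.3%) the 95% interval lay within 0.5 of 0 on the log2 scale. For 9657 genes (88.8%) its lower end was above -0.5, and for 10828 (99.5%) above -1. An interval within 0.5 of 0 was reached by 66.7% of the lowest, 89.9% of the middle and 93.4% of the highest tier. The median distance from estimate to interval end was 0.246, so a uniform shift like the observed median is far below what a single gene can show. Quantile normalisation also sets every library to the same distribution, so a change in total mRNA would not be seen.

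Gene groups that make up the synapse lay slightly below 0 and none of their members passed. Counts below 0 in this and the following lists stand beside 64.7% of all tested genes, or 56.7% with libraries centred. Among postsynaptic scaffolds 19 of 19 tested members were below 0 (16 with libraries centred), with a median of -0.09 against -0.04 over all tested genes. Dlg4, which encodes PSD-95, was at 6.96 and 7.16 against 6.91, 7.13 and 6.91. Shank3 was at 4.26 and 4.60 against 4.31, 4.42 and 4.29. In both the groups overlapped, and DMSO replicate 3 and NMP peptides replicate 2 were the high libraries. DMSO replicate 3 was above DMSO replicate 2 in 18 of the 19 scaffolds. Without DMSO replicate 3 the scaffold median was 0.04, with 3 members below 0, and without DMSO replicate 2 it was -0.21, with 19 below 0. The sign of the group therefore follows the choice of control library.

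Receptors, release machinery and channels also lay slightly below 0. Of 20 glutamate receptor subunits 16 were below 0 (median -0.08), of 14 GABA receptor subunits 11 (-0.06), of 22 presynaptic genes 17 (-0.10), of 32 potassium channels 23 (-0.11) and of 24 sodium and calcium channel genes 20 (-0.08). Of all tested genes 64.7% were below 0. With libraries centred the 5 counts were 15, 10, 15, 22 and 17, against 56.7% of all tested genes. DMSO replicate 3 was the higher control in 16, 13, 20, 30 and 20 members of these lists. Without it the medians were 0.01, 0.04, 0.06, 0.03 and 0.04. Apart from Scn1a, 0 members of these 5 lists had an unadjusted p under 0.05. Snap25, a SNARE of vesicle fusion, was at 7.49 and 7.68 against 7.22, 7.62 and 7.42. Rims1, an active zone scaffold, was at 3.86 and 4.17 against 3.45, 3.92 and 3.73. Grm7, a presynaptic glutamate receptor, was at 3.10 and 3.24 against 2.97, 3.11 and 2.88. Grin2b, an NMDA receptor subunit, was on the other side, at 3.83 and 4.30 against 4.41, 4.82 and 3.83, and its groups overlapped.

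**Figure D4:**
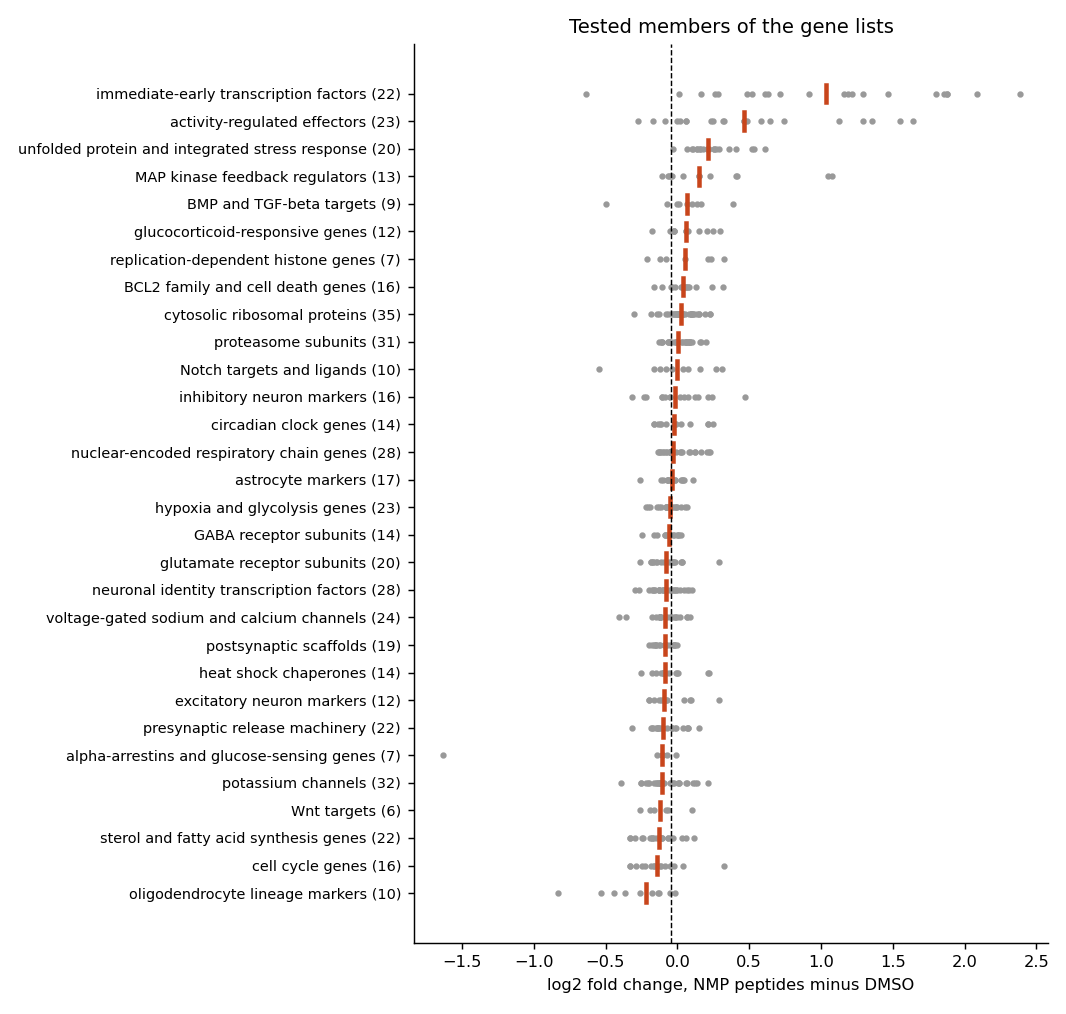
Log2 fold change (NMP peptides minus DMSO) of every tested member (grey points) of the gene lists with at least 6 tested members, with the median of each list in orange and the median of all tested genes as a dashed line; numbers in brackets are tested members. The 2 activity lists and the MAP kinase feedback regulators hold members above 1, the alpha-arrestin list holds Txnip at -1.63, and the synaptic and channel lists lie between -0.41 and 0.29.

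Unfolded protein and integrated stress response genes lay mostly above 0, again with 0 called, and they show how far the 2 controls were apart. Their list had 20 tested members, of which 19 were above 0, with a median of 0.21, and 1 had an unadjusted p under 0.05. DMSO replicate 3 was below DMSO replicate 2 in 20 of 20. Ddit3, which encodes CHOP, was at 4.12 and 2.52 against 3.56, 4.01 and 3.95. Trib3, a pseudokinase induced by ATF4, was at 2.03 and 0.34 against 1.65, 1.56 and 1.94. In both, all treated libraries lay between the 2 controls. Without DMSO replicate 3 the list median was -0.10 with 15 members below 0, and without DMSO replicate 2 it was 0.50. Ppp1r15a, the phosphatase subunit that ends the integrated stress response and also an immediate-early gene, was 1 of 3 members (of 20) whose treated libraries were all above both controls, as 4.28% of all tested genes were. It stood at 4.50 and 3.69 against 4.61, 4.89 and 4.62 (0.61, SE 0.26, adjusted p = 0.971).

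Among 14 tested heat shock chaperones 11 were below 0 (9 with libraries centred), with a median of -0.09, 0 were called and 1 had an unadjusted p under 0.05. Without DMSO replicate 3 the median was -0.006, with 8 below 0. Hspa8, the constitutive heat shock cognate, was at 9.85 and 9.96 against 9.44, 9.79 and 9.73, a fold change of -0.25 (SE 0.10, adjusted p = 0.971). Dnajb1, a co-chaperone, was at 3.86 and 3.98 against 4.26, 4.21 and 3.94, and its groups overlapped. Sterol and fatty acid synthesis genes had 19 of 22 members below 0, a median of -0.13, 0 called and 2 at an unadjusted p under 0.05, both lower. Insig1, the sterol sensor of that pathway, was at 6.32 and 6.59 against 6.17, 6.24 and 6.21 (-0.25, SE 0.10). Sc5d, a late enzyme of cholesterol synthesis, was at 4.67 and 4.86 against 4.31, 4.39 and 4.61. DMSO replicate 3 was the higher control in 20 of 22, and without it the median was 0.03.

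Developmental and identity factors of cortical neurons had 22 of 28 members below 0 (20 with libraries centred), with a median of -0.08, 0 called and 1 at an unadjusted p under 0.05. That member was Emx2, a homeobox factor of cortical progenitors, at 1.94 and 2.16 against 1.53, 1.91 and 1.83. Pou3f2, an upper-layer factor, was at 2.17 and 2.29 against 1.76, 1.96 and 2.17, with the highest treated library level with the lower control. The interneuron factor Lhx6 was at 3.48 and 3.32 against 2.92, 3.03 and 3.31. In these 3 genes replicate 1 was the lowest treated library, as in 19 of the 28. Without it the list median was -0.04, against -0.03 over all tested genes in that fit.

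The list of hypoxia and glycolysis genes had 19 of 23 members below 0 (17 with libraries centred). Its median was -0.05, and 0 members had an unadjusted p under 0.05. The median was -0.03 without NMP peptides replicate 1 and -0.10 without replicate 3. Slc2a1, the glucose transporter that Txnip restrains, was at 2.91 and 3.14 against 3.20, 3.16 and 2.93, with an interval from -0.22 to 0.36. Among BCL2 family and cell death genes 5 of 16 were below 0, with a median of 0.04 and 0 called. The sign of that median depended on single libraries: it was -0.01 without NMP peptides replicate 1, with 10 below 0, and -0.008 without DMSO replicate 3, with 11 below 0. Bax, a pore-forming effector of apoptosis, was the member with an unadjusted p under 0.05, at 4.61 and 4.53 against 4.96, 4.75 and 4.72 (0.24, SE 0.10). Casp9, the initiator caspase of the same pathway, was on the opposite side, at 3.02 and 2.97 against 2.85, 2.81 and 2.84 (-0.16, SE 0.11). Neither passed the adjusted threshold.

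Proteasome genes lay close to 0 with narrow intervals. All 31 tested proteasome subunits had 95% intervals within 0.5 of 0, with a median of 0.01 and a range from -0.13 to 0.20. Psmd2, a scaffold of the regulatory particle, was at 6.82 and 6.88 against 6.73, 6.78 and 6.72. Gpm6a and Gpm6b, membrane proteins reported to anchor the neuronal membrane proteasome, had fold changes of -0.04 and -0.09, with intervals from -0.21 to 0.12 and from -0.26 to 0.09. Of 35 cytosolic ribosomal protein genes 31 were bounded in the same way, with a median of 0.03, and of 28 respiratory chain genes 26, with a median of -0.03. Without DMSO replicate 3 these 2 medians changed sign, to -0.02 and 0.05. In these 4 lists limma called 0 members, and 0 had an unadjusted p under 0.05.

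Of the markers of other cells 0 were called, and the oligodendrocyte lineage had the lowest median of the gene lists. Its 10 tested markers were all below 0 (9 with libraries centred), with a median of -0.22 against -0.04 over all tested genes, and 2 had an unadjusted p under 0.05. Without DMSO replicate 3 the median was -0.32 with 7 below 0, and without NMP peptides replicate 1 it was -0.15 with 10 below 0. Sox10 was at 2.71 and 2.74 against 2.25, 2.31 and 2.53, and Olig2 at 5.36 and 5.29 against 4.90, 5.08 and 5.21. For these 2 lineage factors the groups did not overlap, and their fold changes were -0.37 (SE 0.17) and -0.26 (SE 0.11). They were the 2 of the 10 tested markers that were lower without overlap, against 13.1% of all tested genes. Bcas1 and Gpr17, genes of differentiating oligodendrocytes, differed more between replicates than between groups. Bcas1 was at 2.35 and 0.78 against -0.22, 0.34 and 2.09. Gfap, an astrocyte intermediate filament, also differed more between replicates than between groups, at 4.13 and 2.68 against 2.41, 2.87 and 4.15. DMSO replicate 2 and NMP peptides replicate 3 were high in all 3 genes. Signals were also summed over tested markers, with log2 values converted to linear scale. For the 10 oligodendrocyte markers the sum was 153 and 175 in DMSO and 150.3, 139.8 and 139.9 with NMP peptides. For the 17 tested astrocyte markers it was 1562 and 1629 against 1492, 1731 and 1526. Whether the cell make-up of the cultures takes part in the differences above was not tested.

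Microglial and vascular genes were near the floor. Tmem119, a marker that sets microglia apart from other brain cells, had no value in 3 of the 5 libraries and was at -4.68 in DMSO replicate 2 and -3.53 in NMP peptides replicate 2, and Cldn5 of endothelium had none in any. Acta2, smooth muscle actin, was at 0.08 and -0.08 against 1.55, 1.69 and -0.25, so that treated replicates 1 and 2 were high and replicate 3 was below the controls. Of 20 interferon and inflammatory genes 3 passed the filter. Of 16 tested cell cycle genes 14 were below 0 (median -0.14), among them Ccna2, cyclin A2, at 2.22 and 2.44 against 2.06, 2.12 and 1.94. DMSO replicate 3 was the higher control in 14 of the 16, and without it the median was -0.003 with 9 below 0. It was -0.26 without DMSO replicate 2, -0.23 without NMP peptides replicate 1 and -0.08 without NMP peptides replicate 3.

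Beside the other groups, Klf10 and Txnip had their lowest means with intact peptides. Both were chosen by low values in these same libraries, which makes low values beside the other groups likely. The share of all tested genes with the 3 intact-peptide libraries lowest was not counted. For Klf10 the means were 1.63 with NMP peptides, 2.27 in DMSO, 2.07 with PK-cleaved peptides, 2.02 with peptides plus APV and 2.17 with bicuculline. The 3 intact-peptide libraries lay below all 11 others. The difference from PK-cleaved peptides, -0.43, missed the threshold (adjusted p = 0.784), as did that of bicuculline from NMP peptides, 0.53 (adjusted p = 0.118). For Txnip the means were 2.55, 4.19, 3.60, 3.29 and 4.13 in the same order, and the 3 intact-peptide libraries were again below all others. NMP peptides minus PK-cleaved peptides was -1.05 (adjusted p = 1) and bicuculline minus NMP peptides was 1.58 (adjusted p = 0.0537). In those contrasts limma called 9 genes higher with intact than with PK-cleaved peptides (0.0827%) and 19 higher with bicuculline than with intact peptides (0.175%). Lower calls numbered 0 in both.

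**Figure D5:**
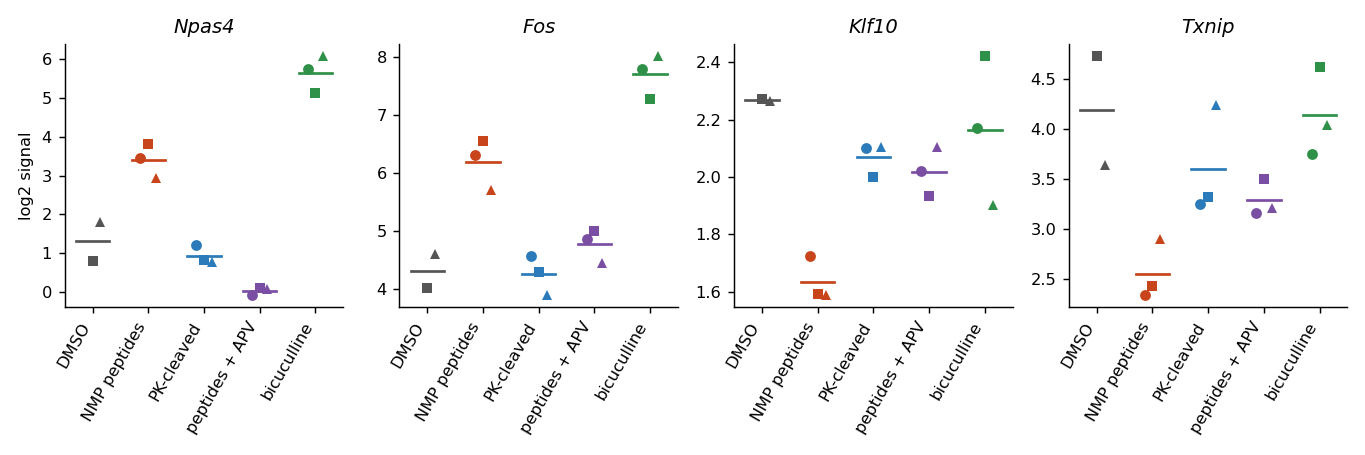
Log2 signal of Npas4, Fos, Klf10 and Txnip in each of the 14 libraries of the 5 groups (points by replicate as circle, square and triangle for 1, 2 and 3; bars are group means; vertical axes differ and do not start at 0). Npas4 and Fos are highest with bicuculline (means 5.64 and 7.70), while Klf10 and Txnip are lowest with intact NMP peptides (means 1.63 and 2.55).

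Of the 20 named genes with the smallest p below 0, 19 were also lower with intact than with PK-cleaved peptides, and in 20 the difference was smaller than that from DMSO (median -0.16 against -0.39). Their choice by the difference from DMSO makes a smaller size elsewhere likely. Scn1a had a mean of 1.14 with PK-cleaved peptides and a difference of 0.01 between the intact and cleaved preparations, against -0.41 from DMSO. Kctd7 had 1.80 with PK-cleaved peptides and a difference of -0.11. Gpr63 had 0.69 and -0.11, and Sacm1l 4.02 and -0.07. Of 9 tested BMP and TGF-beta targets 7 were above 0 against DMSO, with a median of 0.07 (-0.01 without DMSO replicate 3). Id3, a target of BMP signalling and 1 of the 2 below 0, differed by about the same from both, -0.49 from DMSO and -0.50 from PK-cleaved peptides. None of these differences passed, each with an adjusted p of 0.971 against DMSO and 1 against PK-cleaved peptides. These contrasts share the NMP peptides libraries. For Npas4 and Fos the difference from PK-cleaved peptides, 2.46 and 1.94, passed (adjusted p = 0.00368 and 0.0069). Ppp1r10 was also higher than with PK-cleaved peptides, by 0.39 (adjusted p = 0.0446), and its mean with bicuculline, 3.34, was 0.27 lower than with intact peptides (adjusted p = 0.266).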

How the data were processed

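RNA was measured in 14 libraries of 5 groups, of which 5 are compared here. The deposited values are log2 signals, quantile-normalised as their common median of 2.19 shows, with "---" where a feature has no value. Per the submitters' processing notes the build was GRCm38.p6; the aligner, the counter and the annotation were not given in the sources used here. Base 2 was checked on the values, which on a linear scale and weighted by exon length in kilobases add up to 1.18e+06 to 1.27e+06 in each library. Per the labels' protocols, reads were paired-end, 100 bases, from ribosome-depleted RNA. Read depth is unknown. The series text calls the replicates biological without saying whether cultures or animals were repeated, so p-values cover only the spread among these samples.

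Features were ranked by mean and the lowest 40% dropped, leaving 10877 genes. All libraries were fitted with limma 3.58.1 in R 4.3.3 (a mean per group, variance trend, empirical Bayes), with Benjamini-Hochberg adjustment and a threshold of 0.05, and the procedure was tested on simulated data. No set test was run.

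Replicate numbers 2 and 3 are shared by both groups. Deviations from the group means correlated at -0.341 and -0.48 between libraries of the same number, and at 0.48 and 0.341 between DMSO replicate 2 and NMP peptides replicate 3 and between DMSO replicate 3 and NMP peptides replicate 2 (with 2 controls, their deviations are mirror images), so the numbers were not taken to pair libraries.

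Members and gene lists were chosen with earlier results of these data known. The rule for named genes was: 7 index genes, all called genes, the 20 smallest p below 0 and 10 above 0, the 10 largest negative differences without overlap above the median level, and from each list the 2 smallest p per direction (10 in the activity lists), without predicted genes. Chosen after their values were seen were Ddit3, Trib3, Gpr17, Bcas1, Gfap, Egr2, Ier2, Nr4a3, Jun, Arrdc2, Arrdc3, Mlx, Mlxip, Hes1, Hes5, Dlg4 and Shank3. Promoters and positions are from RefSeq on GRCm38.p6.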

Additional observations from a re-analysis of the deposited data

How the results depend on the processing

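The count of genes called higher, 2, was 0 with the lowest 60% dropped, with a replicate block, with only the compared libraries, with array weights and without the variance trend, 2 without the filter and 6 with median centring. Leaving out 1 library each gave 0 to 10. Called lower was 0 in every setting run. At an unadjusted p under 0.05, genes above 0 numbered 49 with the lowest 60% dropped and 45 to 241 without 1 library. Those below 0 numbered 267 without the filter, 64 with the lowest 60% dropped, 82 with median centring, 89 with the replicate block and 68 to 295 without 1 library. Genes lower without overlap numbered 832 with the lowest 60% dropped and 2010 to 4022 without 1 library, against 1426 in all. Fewer genes or samples enter those counts by construction; the causes of the other moves were not tested. Genes bounded within 0.5 of 0 numbered 6893 to 9054 without 1 library.

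Both groups share only replicate numbers 2 and 3, which the labels do not tie to a common batch or animal. With the replicate block 0 genes were called, with fold changes of 1.80 for Fos and 2.04 for Npas4 (adjusted p = 0.163 for each, limma).

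The sign of the fold change turned for 13 of the genes printed, given here as the lowest and highest log2 fold change over the fits that leave out 1 library: Ddit3 -0.28 and 1.32, Trib3 -0.31 and 1.37, Dlg4 -0.18 and 0.026, Shank3 -0.25 and 0.083, Gpm6a -0.11 and 0.010, Spry1 -0.18 and 0.091, Nptx2 -0.19 and 0.19, Slc2a1 -0.046 and 0.19, Arrdc2 -0.082 and 0.036, Arrdc3 -0.37 and 0.085, Gfap -0.99 and 0.47, Gpr17 -1.34 and 0.27, and Hes5 -0.48 and 0.16. Each turned without 1 of the DMSO libraries, and Arrdc2, Gfap and Nptx2 also without an NMP peptides library. Libraries centred on their median gave 0.018 for Arrdc2 and 0.020 for Nptx2, and array weights gave 0.098 for Gfap.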
